A study of Mus musculus with 12 samples.

Results

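Expression of 9 carbonic anhydrase genes (Car1, Car2, Car3, Car4, Car7, Car8, Car9, Car12 and Car13) was examined by RNA-Seq of proximal colon in mice that lack the long non-coding RNA EPR in the intestinal epithelium (EPR cKO) and in their controls (EPR fl/fl). The genes were chosen by symbol among the 55376 genes of the count table, and 8 of them passed the filter on low counts, Car7 being the exception. Car8, a catalytically inactive relative of the enzymes, fell to 46.5% of the control level in EPR cKO colon, and the 2 groups did not overlap. Car9, a membrane enzyme, rose 1.51-fold, but the groups overlapped through 1 library, and it passed the test in 7 of 10 other settings. Car1 was by far the most abundant member in both groups, with a log2 fold change of 0.41 (SE 0.20) that did not pass the test. Car3 had the largest difference in size, −1.56 on the log2 scale, and the largest spread between animals (SE 0.63), and did not pass either.

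Both groups carried EPR alleles whose promoter and exon 1 lie between loxP sites, and EPR fl/fl mice without Cre were the controls (the labels also name this genotype wt). EPR is a long non-coding RNA of epithelial tissues, listed in the count table as Smim31. EPR cKO mice carried in addition the CDX2P-NLS Cre transgene, in which the human CDX2 promoter drives Cre in epithelial cells from the end of the ileum to the colon, so that other cells of the colon keep the gene. The 6 mice of each group were 12 weeks old, with 1 library per mouse, and their sex was not given. RNA came from the frozen proximal segment of the colon, taken whole, so each library mixes epithelium with muscle, nerves, blood cells and attached fat.

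Carbonic anhydrases are zinc enzymes that interconvert carbon dioxide and water with bicarbonate and protons. In the colon, the surface cells use these products to exchange sodium for protons and chloride for bicarbonate, which drives salt and water absorption. The family members differ in place: Car1, Car2, Car3, Car7 and Car13 are cytosolic, Car4 is held on the outer membrane by a lipid anchor, Car9 and Car12 span the membrane with the active site outside, and Car5a and Car5b are mitochondrial. Car8 lacks a residue needed to hold the zinc and binds the inositol trisphosphate receptor instead. Car9 and Car12 are known targets of the hypoxia-inducible factor HIF.

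Because Car9 was the enzyme gene that rose, the sequence before its start is shown with that of Car12, the other HIF target. Sequences are from RefSeq (GRCm38.p6), whose table held windows before the start of 4 members (Car4, Car7, Car9 and Car12). The core letters bound by HIF, ACGTG and GCGTG, were searched on both strands. ACGTG is also part of CACGTG, the E-box. Capitals mark a match, and the stretches below run 5′ to 3′ on the plus strand.
Car9, chr4:43506776-43506965, before the first exon of the count table: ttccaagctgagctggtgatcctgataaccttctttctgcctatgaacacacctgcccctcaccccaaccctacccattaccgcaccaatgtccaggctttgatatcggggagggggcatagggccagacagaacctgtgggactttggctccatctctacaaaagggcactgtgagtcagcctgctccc
Car9, chr4:43506996-43507025, up to the RefSeq start: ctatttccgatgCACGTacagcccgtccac
Car12, chr9:66713436-66713685, up to the RefSeq start: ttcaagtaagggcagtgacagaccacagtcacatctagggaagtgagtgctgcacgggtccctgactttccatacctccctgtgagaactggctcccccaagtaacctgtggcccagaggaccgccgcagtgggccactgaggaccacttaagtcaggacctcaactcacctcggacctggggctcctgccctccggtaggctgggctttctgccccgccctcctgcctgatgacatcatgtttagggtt

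The Car9 window held 1 match, ACGTG on the minus strand, whose nearest base lay 14 bases before the RefSeq start. The count table begins the first Car9 exon 60 bases before that start, so the match lies inside that exon as counted. The Car12 and Car4 windows held 0 matches in 250 bases. Car7 has 3 RefSeq windows, which held 2, 0 and 1 matches of GCGTG, the nearest 6 bases before a start. Among all 32851 RefSeq windows of this length, 12679 (38.6%) held at least 1 match, so that a match of this kind is common.

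Total counts ran from 13093904 to 30727736 in EPR fl/fl and from 18468123 to 33211041 in EPR cKO. EPR itself had 297 to 1474 counts in control libraries and 0 to 10 in EPR cKO libraries, which is −8.09 on the log2 scale (SE 0.47, edgeR adjusted p = 1.62e-06). The library EPR cKO 1 stood apart from the other EPR cKO libraries. Its 10 smooth muscle genes summed to 10212 CPM (the count relative to the library's scaled total), against 1236 to 3026 in the others and 3445 to 5869 in EPR fl/fl, and its 10 enteric neuron and glia genes to 147 CPM, against 15.8 to 42.8 and 43.5 to 89.8. Epithelial genes were present in every library (10 genes, 9450 to 13686 CPM in EPR fl/fl and 10930 to 17005 in EPR cKO), as were immune genes (10 genes, 97.3 to 226 CPM and 99.98 to 138). Without EPR cKO 1, edgeR called 2273 genes lower and 1178 higher, against 251 and 141 with all libraries. Of these marker lists it then called all 10 smooth muscle genes, 7 enteric neuron and glia genes and 1 immune gene lower, and 3 epithelial genes higher. With all libraries, edgeR and unweighted limma-voom called 0 genes of each of these lists, and DESeq2 called 1 epithelial gene higher. Sample quality weights let limma-voom count deviating libraries less. With them and all libraries, 10 smooth muscle and 4 enteric neuron and glia genes were called lower and 4 epithelial genes higher. Results below are therefore given with and without this library where it moves them. In every other EPR cKO library, the smooth muscle sum and the sum of 10 adipocyte genes lay below every control. Fits without EPR cKO 1 therefore cannot tell genotype from tissue make-up. The same limit holds for the fit with sample quality weights, which called all 10 smooth muscle and all 10 adipocyte genes lower.

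Levels of different genes were compared per length, as RPKM, the CPM divided by the summed exon length in kilobases. In EPR fl/fl colon, Car1 stood at 8212 ± 1910 RPKM (SD, n = 6), and the next genes were Car3 (288 ± 149), Car2 (216 ± 15.3) and Car4 (193 ± 47.3). The library ranges of Car3, Car2 and Car4 overlapped, while Car1 lay above all of them. Car8 (31.1 ± 6.20 RPKM), Car12 (25.4 ± 3.48) and Car9 (21.7 ± 1.94) came next, followed by Car13 (16.6 ± 2.66). The range of Car12 overlapped those of Car8 and Car9, while the lowest Car8 library (25.2 RPKM) lay above the highest Car9 library (24.2). Car7 stood at 0.250 ± 0.142 RPKM, among the lowest of the 16 mouse genes of the family.

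In EPR cKO colon, Car1 (10913 ± 2547 RPKM) was again first, and Car2 (253 ± 57.2) second with a range above that of Car4 (141 ± 15.98). Car3 (97.7 ± 108 RPKM) ranged over those of Car4 and Car12. Car8 (14.5 ± 1.84 RPKM) stood in position 8 instead of 5, although its range still overlapped that of Car13 (21.8 ± 5.26), the gene above it. Of the summed RPKM of the 16 genes, Car1 made up 90.8% ± 2.74 in EPR fl/fl libraries and 94.6% ± 1.44 in EPR cKO libraries (SD, n = 6). Without Car1, the summed RPKM was 799 ± 169 in the controls and 598 ± 87.0 in EPR cKO. These sums are descriptions and were not tested.

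**Figure D1:**
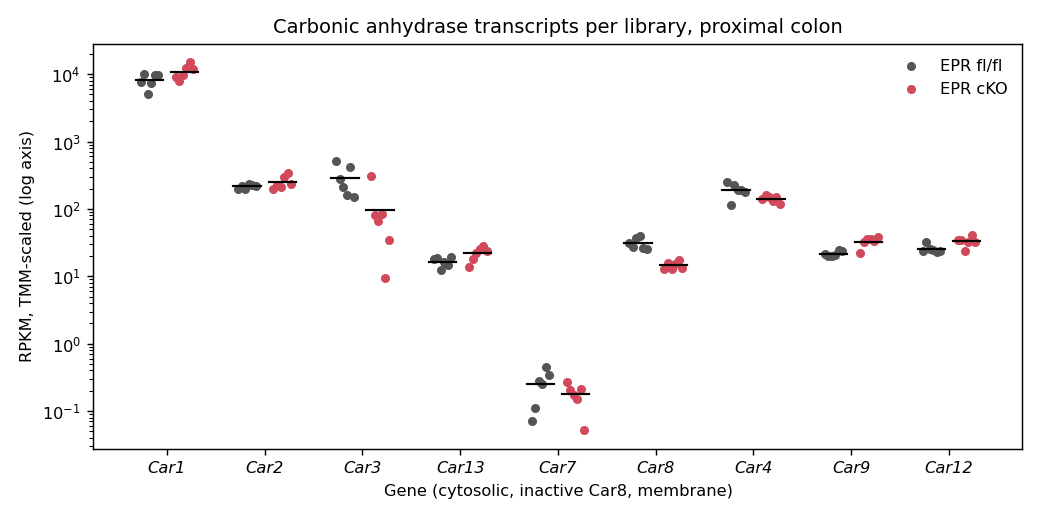
Level of the 9 carbonic anhydrase genes in each library on a log10 RPKM axis (CPM per kilobase of exon), with EPR fl/fl (grey) and EPR cKO (red) libraries as points and a line at each group's mean. Car1 lies alone at the top in both groups, and Car8 is the gene whose points separate between the groups (means of 31.1 and 14.5 RPKM).

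At an adjusted p under 0.05, 1 of the 8 tested members was lower in EPR cKO (Car8) and 1 was higher (Car9). Of all 15952 tested genes, 1.57% were lower and 0.884% higher by the same rule. The groups did not overlap for Car8 (EPR cKO lower), as for 1.47% of tested genes, and for 0 members with EPR cKO higher, as for 1.00% of tested genes. Past the study thresholds (adjusted p under 0.001 and a change of more than 2.38-fold in either direction), edgeR called 0 members, where 0.169% of all tested genes passed. DESeq2 and limma-voom also called 0 members there, and 1 member (Car3) passed the fold limit at an unadjusted edgeR p under 0.05. With 8 genes, these shares say nothing of the family as a whole. The median log2 fold change was 0.31 over the 8 members and 0.02 over all tested genes. In whole tissue, fewer cells of a type and less RNA per cell cannot be told apart, and this holds for each difference below.

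Of the cytosolic enzymes, 4 lie together on chromosome 3 within 259 kb (mm10, 14641727 to 14900770), in the order Car13, Car1, Car3 and Car2, with Car1 alone on the minus strand. With all libraries, the estimates were positive for Car13, Car1 and Car2 and negative for Car3, none passed the test, and differences between the genes were not tested. With the mean log2 level of 10 adipocyte genes as a covariate, a setting chosen after values were seen, the sign of Car2 (−0.024) and that of Car3 (0.11) changed, Car1 had 0.16 and Car13 0.0008. That covariate was itself below every control in every EPR cKO library but replicate 1, so the fit cannot tell genotype from fat content. The gaps between the genes were 103, 55 and 14 kb. The table lists 6 genes in the region, the others being Gm5843 and Gm16399. They are named here because of their position, and Gm5843 shares 13.4% of the 50-base stretches of Car1. Gm5843 stood at 4.90 ± 2.03 CPM in the controls and at 6.01 ± 1.84 CPM in EPR cKO, far below the level of Car1.

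**Figure D2:**
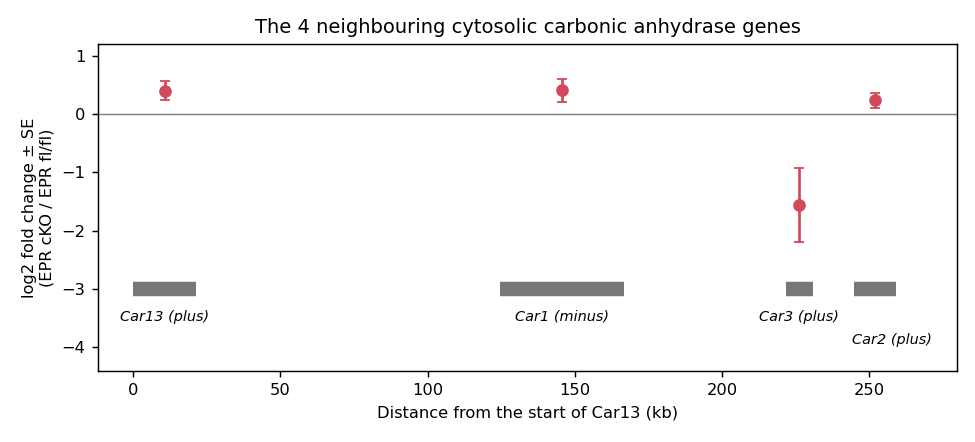
The 4 cytosolic genes of the chromosome 3 cluster in their order, with the log2 fold change of EPR cKO relative to EPR fl/fl on the vertical axis and its SE as bars, against the distance in kb from the start of Car13 and grey bars for the extent of each gene. Car13, Car1 and Car2 have estimates of 0.40, 0.41 and 0.23, and Car3 of −1.56 with the widest bar.

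Car1, an enzyme of colonocytes and red blood cells, ranged from 6215 to 12407 CPM in EPR fl/fl (median 10779) and from 9921 to 18601 in EPR cKO (median 13306). The groups overlapped, and 3 EPR cKO libraries (replicates 4, 5 and 6, 14707 CPM or more) lay above every control. The log2 fold change of 0.41 (SE 0.20) had an edgeR adjusted p of 0.294, and 0.44 (adjusted p = 0.142) without EPR cKO 1. It was 0.19 (adjusted p = 0.731) with the log2 ratio of smooth muscle to epithelial genes as a covariate and 0.16 (0.855) with the adipocyte covariate. In both covariates, every EPR cKO library but replicate 1 lay below every control. Fits with them, here and below, therefore cannot tell genotype from tissue make-up. All 10 epithelial genes had a positive sign in EPR cKO (median 0.25) and all 10 smooth muscle genes a negative sign (median −0.48), and their part in the Car1 difference was not tested. Car1 took between 0.638% (Wilson 95% interval 0.635 to 0.641) and 1.28% (1.27 to 1.29) of all counts in EPR fl/fl, and between 0.993% (0.989 to 0.997) and 1.80% (1.79 to 1.80) in EPR cKO. These intervals cover counting error only. By CPM it was between the 4th and 11th most abundant gene of a control library and between the 2nd and 8th of an EPR cKO library.

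Since red cells also make Car1, the 7 listed erythroid genes in the table were summed. They came to 12.4 to 69.5 CPM in EPR fl/fl (median 26.1) and 5.22 to 29.2 in EPR cKO (median 10.3), all 5 tested members having a negative sign. Car1 was 173 to 768 times that sum in controls, against 340 to 3371 times in EPR cKO. The level of these markers cannot be set against that of Car1 to weigh a red cell source. The part of red cells in the Car1 difference was not tested. Across the 12 libraries, with group means removed, Car1 and the erythroid sum had a Pearson r of −0.34 (permutation p = 0.303, adjusted over 7 relations 0.424) and a Spearman rho of −0.30 (p = 0.363, adjusted 0.448). Without the 2 libraries farthest from the median r was −0.39, and it was 0.24 within EPR fl/fl and −0.91 within EPR cKO. Surface colonocyte genes (11 genes, 8 with a positive sign) summed to 7857 to 11764 CPM and 8558 to 11599 CPM, with a median log2 fold change of 0.15. With all libraries edgeR called 0, while DESeq2 and limma-voom, the latter with or without sample quality weights, each called 2 higher. Without EPR cKO 1, edgeR called 2 higher. Lypd8, with a negative sign (−0.14), weighed most in the sum (4299 ± 1391 CPM in EPR fl/fl). The surface colonocyte sum had r = 0.10 with Car1 (permutation p = 0.768, adjusted 0.768) and rho = −0.05 (p = 0.891, adjusted 0.891), with r = −0.27 without the 2 farthest libraries, 0.14 within EPR fl/fl and 0.04 within EPR cKO.

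Car2, the fast cytosolic enzyme of many epithelia, ranged from 349 to 417 CPM in EPR fl/fl (median 390) and from 359 to 619 in EPR cKO (median 413). The control libraries lay close together and the EPR cKO libraries reached higher, but the ranges overlapped (log2 fold change 0.23, SE 0.13, adjusted p = 0.354 by edgeR). Car13, a cytosolic enzyme of the gut and other tissues, ranged from 28.7 to 44.2 CPM (median 39.8) in EPR fl/fl and from 31.1 to 64.8 (median 52.7) in EPR cKO. Its log2 fold change of 0.40 (SE 0.16, adjusted p = 0.222) passed the test only when EPR cKO 1 was left out (0.49, adjusted p = 0.0202) or with sample quality weights (0.46, adjusted p = 0.0233). It was 0.032 (adjusted p = 0.928) with the smooth muscle to epithelium covariate and 0.0008 (0.999) with the adipocyte covariate, and for Car2 these fits gave 0.027 (0.946) and −0.024 (0.966).

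Car3, an enzyme of low activity that is abundant in fat, muscle and liver, was the member that varied most. Its CPM in EPR fl/fl replicates 1 to 6 was 872, 464, 352, 270, 696 and 248. In EPR cKO replicates 1 to 6 it was 522, 136, 112, 141, 15.6 and 57.9. Thus 5 EPR cKO libraries lay below every control, and EPR cKO 1 lay within the control range. The log2 fold change was −1.56 (SE 0.63, edgeR adjusted p = 0.218) with all libraries and −2.41 (SE 0.51, adjusted p = 0.00789) without EPR cKO 1. With sample quality weights in limma-voom it was −2.26 (adjusted p = 0.00956). Neither of these last 2 fits can tell genotype from tissue make-up.

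Fat markers varied together with Car3. The 10 adipocyte genes summed to 758 to 1882 CPM in EPR fl/fl (median 1210) and 233 to 521 CPM in 5 EPR cKO libraries, while EPR cKO 1 had 1427 CPM. All 10 had a negative sign (median log2 fold change −1.35), and 1, Pck1, was called lower (−1.05, SE 0.22, edgeR adjusted p = 0.0246). DESeq2 and limma-voom each called 2 of them lower, and all 10 were called without EPR cKO 1 and with sample quality weights. No adipocyte gene was at 0 in any library. With group means removed, Car3 and the adipocyte sum had a Pearson r of 0.92 over 12 libraries (permutation p = 8e-05, adjusted 0.00042) and a Spearman rho of 0.94 (p = 4e-05, adjusted 0.00028). The r was 0.94 without the 2 farthest libraries, 0.98 within EPR fl/fl and 0.91 within EPR cKO. With the adipocyte covariate, the Car3 log2 fold change was 0.11 (SE 0.16, adjusted p = 0.839), in a fit that cannot tell genotype from fat content.

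Skeletal muscle is another possible source of Car3, although the level of its markers cannot be set against that of Car3 to weigh it. The 8 listed skeletal muscle genes summed to 15.2 to 25.1 CPM in EPR fl/fl and 16.8 to 39.4 in EPR cKO. Of the 2 that were tested, Acta1 (skeletal muscle actin) was higher in EPR cKO (log2 fold change 1.18, SE 0.22, edgeR adjusted p = 0.0127), and Ckm (muscle creatine kinase) had −0.39 (adjusted p = 0.694), or −1.27 (adjusted p = 0.00845) without EPR cKO 1. The parts that attached fat and muscle had in the Car3 difference were not tested.

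The mitochondrial enzyme gene Car5b, no member of the 9, varied with the same markers. It ranged from 7.12 to 31.8 CPM in EPR fl/fl (median 14.6) and from 0.873 to 18.2 in EPR cKO (median 4.77), the highest EPR cKO value again being replicate 1. Its log2 fold change was −1.31 (SE 0.58, edgeR adjusted p = 0.255), −2.00 (adjusted p = 0.0142) without EPR cKO 1 and 0.33 (adjusted p = 0.581) with the adipocyte covariate. With group means removed, Car5b and the adipocyte sum had r = 0.92 over 12 libraries (permutation p = 0.00012, adjusted 0.00042) and rho = 0.91 (p = 0.00044, adjusted 0.00154), with r = 0.88 without the 2 farthest libraries, 0.92 within EPR fl/fl and 0.91 within EPR cKO.

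**Figure D3:**
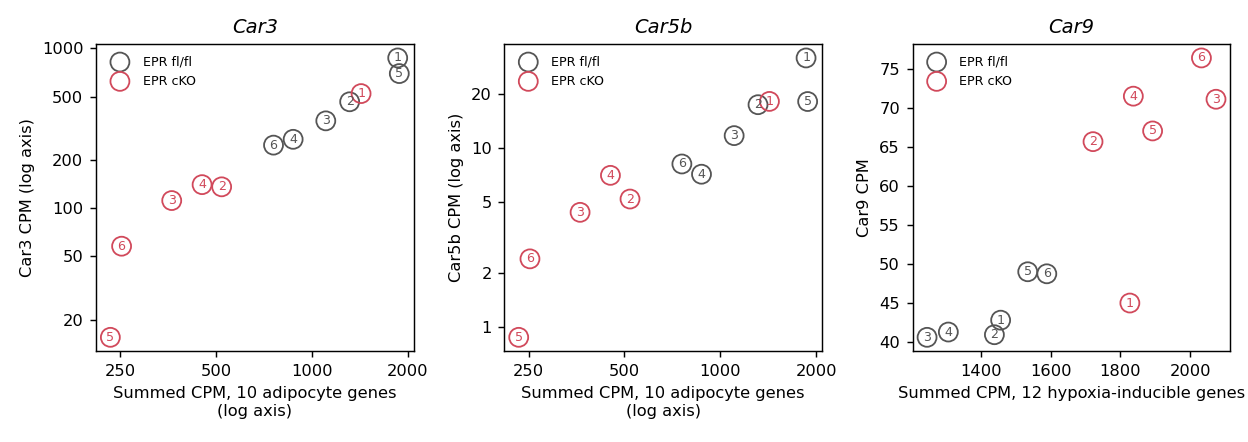
CPM of Car3 and Car5b against the summed CPM of 10 adipocyte genes (log axes), and CPM of Car9 against that of 12 hypoxia-inducible genes (linear axes), with 1 circle per library, numbered by replicate. EPR cKO 1 lies among the EPR fl/fl libraries in the Car3 and Car5b panels (522 and 18.2 CPM), and in the Car9 panel it is the EPR cKO library at the control level (45.0 CPM).

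Car8 lies on the minus strand of chromosome 4 (mm10, 8143362 to 8239041, 9 exons). It is best known from Purkinje cells of the cerebellum. Its CPM in EPR fl/fl replicates 1 to 6 was 121, 104, 145, 153, 100.3 and 97.2. In EPR cKO replicates 1 to 6 it was 49.0, 59.8, 50.1, 58.2, 66.8 and 50.3. Every EPR cKO library lay below every control, with a gap between 66.8 and 97.2 CPM. The mean fell from 120 ± 23.9 to 55.7 ± 7.10 CPM (SD, n = 6), a log2 fold change of −1.11 (SE 0.13, edgeR adjusted p = 0.000452) or 2.15-fold. It stayed past the threshold in all 10 other settings (−1.27 to −1.09) and in all 12 fits that left out 1 library (−1.17 to −1.02), and it was −1.09 (adjusted p = 0.000366) without EPR cKO 1. Of its 50-base stretches, 0.0789% occur in another gene.

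Goblet cell genes were lower in the same libraries. The 10 listed genes, which make or secrete mucus or specify the lineage, summed to 13522 to 28636 CPM in EPR fl/fl and 6229 to 8646 CPM in EPR cKO. All 10 had a negative sign, with a median log2 fold change of −0.81, and 7 were called lower, among them Muc2 (the gel-forming mucin, −2.19, SE 0.27), Atoh1 (the secretory lineage factor, −1.12, SE 0.13) and Sytl2 (a granule docking protein, −0.96, SE 0.10). The others called were Clca1, Tff3, Zg16 and Spdef, from −1.36 to −0.53. Without EPR cKO 1, edgeR called 9 of the 10 lower. None was at 0 in any library. Muc2 weighed most in the sum (mean of 8027 CPM in EPR fl/fl, against 64.3 CPM for Atoh1). With group means removed, Car8 and the goblet sum had r = 0.50 over 12 libraries (permutation p = 0.164, adjusted 0.287) and rho = 0.45 (p = 0.169, adjusted 0.296). Without the 2 farthest libraries r was 0.17, and it was 0.74 within EPR fl/fl and −0.17 within EPR cKO. By qRT-PCR of isolated crypts, the study found similar levels of Tff3 and of another goblet cell product in both groups. With its electron microscopy, it proposes from this that goblet cells remain in EPR cKO colon. In the whole tissue examined here, Tff3 was lower without overlap of the groups (mean of 247 CPM, against 358 for controls). Its log2 fold change was −0.53 (SE 0.10, edgeR adjusted p = 0.0170). This differs from the crypt result for Tff3, and the reason was not tested. Whether the number of goblet cells had a part in the fall of Car8 was not tested.

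**Figure D4:**
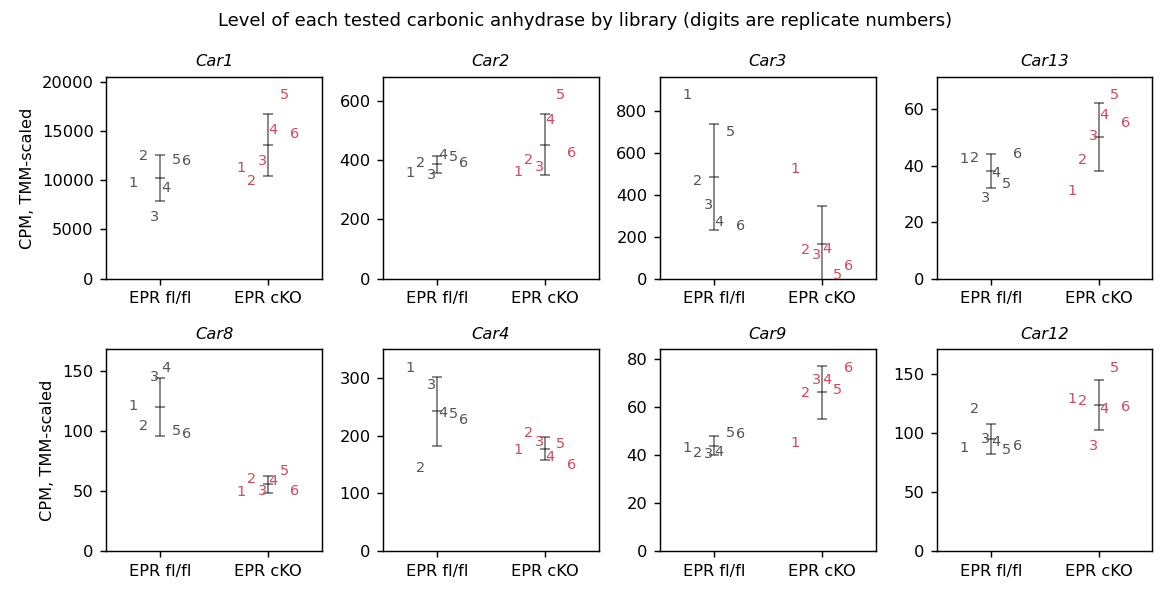
CPM of the 8 tested members in each library, 1 panel per gene with its own linear axis from 0, where digits are the replicate numbers of the 6 EPR fl/fl (grey) and 6 EPR cKO (red) libraries and bars the group mean ± SD (bars are not drawn below 0). Car8 is the gene whose groups separate fully (97.2 to 153 against 49.0 to 66.8 CPM), and Car9 separates but for 1 EPR cKO library at 45.0 CPM.

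Car4, the lipid-anchored enzyme of the apical membrane of colonocytes, ranged from 144 to 318 CPM in EPR fl/fl (median 239) and from 149 to 205 in EPR cKO (median 180). The EPR cKO values lay within the control range, toward its lower end. The log2 fold change was −0.45 (SE 0.15, edgeR adjusted p = 0.155), and −0.56 (adjusted p = 0.0214) when EPR fl/fl 2 was left out. Car4 had r = 0.21 with the surface colonocyte sum (permutation p = 0.567, adjusted 0.661) and rho = 0.29 (p = 0.384, adjusted 0.448), with r = 0.75 without the 2 farthest libraries, 0.34 within EPR fl/fl and −0.22 within EPR cKO. Lypd8 weighed most in that sum.

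Car9 (chromosome 4, plus strand, 43506966 to 43513729, 11 exons) was the enzyme gene that rose. Its CPM in EPR fl/fl replicates 1 to 6 was 42.8, 41.0, 40.6, 41.3, 49.0 and 48.8. In EPR cKO replicates 1 to 6 it was 45.0, 65.7, 71.2, 71.5, 67.1 and 76.4. The groups overlapped through EPR cKO 1 alone, since the other 5 libraries lay above every control. The mean rose from 43.9 ± 3.93 to 66.2 ± 11.02 CPM (SD, n = 6), a log2 fold change of 0.59 (SE 0.11, edgeR adjusted p = 0.0153), and 0.66 (adjusted p = 0.000254) without EPR cKO 1. The call was lost without EPR fl/fl 4 (adjusted p = 0.0554) and without EPR cKO 3 (0.0539), and with total counts in place of TMM scaling (0.57, adjusted p = 0.0517). It was also lost with the smooth muscle to epithelium covariate (0.38, adjusted p = 0.0675) and with the adipocyte covariate (0.37, adjusted p = 0.315). The antisense gene Gm12454, named because it covers 7.17% of Car9's exon bases, stood at 6.58 ± 1.83 and 8.24 ± 1.03 CPM (log2 fold change 0.32, SE 0.18, adjusted p = 0.359), and reads of the pair cannot be told apart if strand was not used in counting.

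Other hypoxia-inducible genes were examined beside Car9. The 12 listed genes summed to 1245 to 1589 CPM in EPR fl/fl (median 1448) and 1721 to 2074 CPM in EPR cKO (median 1865), without overlap. Of the 12, 9 had a positive sign, with a median log2 fold change of 0.27. Most of the sum came from few genes, chiefly Ldha (lactate dehydrogenase, named for its level, 680 ± 96.6 and 918 ± 96.3 CPM, 0.43, SE 0.11, adjusted p = 0.0558) and Ndrg1. Vegfa (−0.22), Bnip3 (−0.54) and P4ha1 (−0.11), named for their sign, had negative estimates that did not pass. The test called 2 higher, Ndrg1 (a stress-induced protein of differentiated epithelium, 258 ± 19.6 and 384 ± 36.0 CPM, 0.57, SE 0.08, edgeR adjusted p = 0.00166) and Slc2a1 (the glucose transporter, 119 ± 11.4 and 150 ± 13.9 CPM, 0.34, SE 0.08, adjusted p = 0.0496). DESeq2 called 4 higher and limma-voom 3, sample quality weights gave 6 higher and 1 lower, and without EPR cKO 1 edgeR called 5 higher and 1 lower. With group means removed, Car9 and this sum had r = 0.52 over 12 libraries (permutation p = 0.0592, adjusted 0.138) and rho = 0.68 (p = 0.0214, adjusted 0.0499), with r = 0.47 without the 2 farthest libraries, 0.83 within EPR fl/fl and 0.43 within EPR cKO. EPR cKO 1 had 1827 CPM of these genes, within the EPR cKO range, while its Car9 level was that of the controls. By comparison, the 10 epithelial genes all had a positive sign, with a median log2 fold change of 0.25 against 0.27 for these 12. Whether the share of epithelium had a part in these differences was not tested.

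Car12, the other transmembrane enzyme, ranged from 85.0 to 120 CPM in EPR fl/fl (median 90.2) and from 89.1 to 155 in EPR cKO (median 124). The groups overlapped, and the control at 120 CPM was EPR fl/fl 2. The log2 fold change of 0.38 (SE 0.12, edgeR adjusted p = 0.119) passed the test in none of the other settings (0.28 to 0.38) and in none of the fits without 1 library (0.31 to 0.46, lowest adjusted p 0.055). The size of the difference between Car9 and Car12 was not tested.

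**Figure D5:**
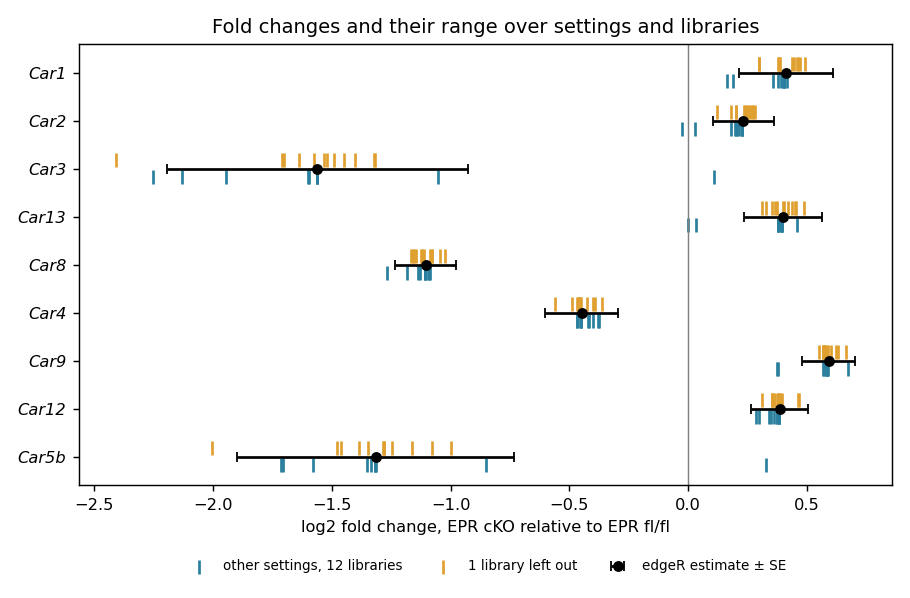
Log2 fold change of each tested member and of Car5b, EPR cKO relative to EPR fl/fl, with the edgeR estimate and its SE as a black point and bar, the 10 other settings as blue ticks and the 12 fits without 1 library as yellow ticks. The ticks of Car8 stay between −1.27 and −1.02, and those of Car3 run from −2.41 to 0.11.

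Car7, a cytosolic enzyme known from neurons, had 2 to 18 counts per library and was not tested. Its CPM ranged from 0.146 to 0.932 in EPR fl/fl (median 0.545) and from 0.106 to 0.551 in EPR cKO (median 0.387), with overlapping groups. A fit without the filter gave a log2 fold change of −0.49 (SE 0.43, edgeR adjusted p = 0.572). Of the 7 other mouse genes of the family, 3 passed the filter. Besides Car5b these were Car11 (an inactive relative, 1.73 ± 0.669 and 1.01 ± 0.856 CPM, −0.78, SE 0.46, adjusted p = 0.381) and Car14 (a transmembrane enzyme, 0.833 ± 0.351 and 0.451 ± 0.378 CPM, −0.90, SE 0.48, adjusted p = 0.339). Without EPR cKO 1, Car11 was called lower (−1.34, adjusted p = 0.0183), and Car14 was under the filter. Exons of the antisense gene Aph1a cover 26.0% of Car14. Car15 stood at 0.458 ± 0.150 and 0.502 ± 0.151 CPM but shares 82.0% of its exon bases with Gm20518 on the same strand. Car5a (mitochondrial), Car6 (secreted) and Car10 (inactive) had at most 12 counts in any library.

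Genes of acid and base transport, which work with the enzymes, were read from the same fit. Of 23 listed genes 19 were tested, 7 with a negative and 12 with a positive sign, and their median log2 fold change was 0.05, near the 0.02 of all tested genes. The test called 1 of them, Slc16a3, an exporter of lactate with protons, which was higher (2.73 to 5.86 CPM, median 3.47, in EPR fl/fl and 4.71 to 13.3, median 9.17, in EPR cKO). Its log2 fold change was 1.29 (SE 0.25, edgeR adjusted p = 0.0157), and the call was lost without EPR fl/fl 4 (adjusted p = 0.0506) and with the adipocyte covariate (1.34, adjusted p = 0.102). Without EPR cKO 1, 4 of the listed genes were called.

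Slc26a3, the chloride and bicarbonate exchanger of surface colonocytes, stood at 282 ± 74.7 CPM in controls, against 443 ± 144 CPM in EPR cKO (0.65, SE 0.23, edgeR adjusted p = 0.160). Slc9a3, the sodium and proton exchanger, stood at 282 ± 120 and 267 ± 93.5 CPM (−0.08, SE 0.29, adjusted p = 0.897). Neither difference passed the test. Slc4a4, which takes bicarbonate in on the basolateral side, differed by 0.06 on the log2 scale (SE 0.09, adjusted p = 0.706), and Cftr, the chloride and bicarbonate channel, by 0.01 (SE 0.17, adjusted p = 0.970). The signs of Slc9a3 and Cftr changed between settings. Best2, a bicarbonate channel of goblet cells, was low at 2.71 ± 1.68 and 1.08 ± 0.666 CPM (−1.32, SE 0.46, adjusted p = 0.160), and passed the test with sample quality weights only (−1.60, adjusted p = 0.0303).

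The genes whose library-to-library pattern was most like each member were found by Pearson r of log2 CPM over the 12 libraries with group means removed, and are a description of shared variation without a test. Car3 was most like Adipoq (r = 0.99), Mme (0.99) and Plin1 (0.99), of which Adipoq and Plin1 are in the adipocyte list. Car1 was most like Abhd10 (0.95), Glod5 (0.95) and Sqor (0.95). Car8 was most like Scamp1 (0.97), Tmem191c (0.93) and 4933421O10Rik (0.92), and none of these was in the goblet list. Car9 was most like Gm15427 (0.98), Arhgap8 (0.96) and Dapk2 (0.95). Car13 was most like Metap1, Eif1ad and Slc25a5 (0.97 each). The other members had lower highest values, with Arid3a (0.94), Lpcat1 (0.90) and Abhd3 (0.88) for Car4, Ewsr1 (0.93), Fubp3 (0.92) and Gm37238 (0.91) for Car2, and AC241534.1 (0.93), Abat (0.90) and Rmdn1 (0.90) for Car12.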

How the data were processed

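Total RNA of 12 proximal colons (6 EPR fl/fl, 6 EPR cKO, grouped by sample title) was depleted of ribosomal RNA and sequenced as stranded paired-end libraries. Per the study's methods and the submitters' processing notes, reads were trimmed, aligned to mm10 with STAR 2.5.3a and counted with featureCounts on an Ensembl annotation. The authors deposited raw counts per gene, neither normalized nor filtered, with exon coordinates and lengths. The strand setting and the handling of reads with several alignments are not given in the sources used here, so counts of overlapping or near-identical genes are uncertain. All 12 count columns matched a sample by name (0 did not).

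Genes with at least 1 CPM in at least 4 libraries were kept (15952 of the 36694 with any count). Counts were scaled by TMM and tested with the quasi-likelihood F test of edgeR 4.0.16 in R 4.3.3 (two-sided, Benjamini-Hochberg adjustment over all tested genes, no covariate), after the procedure had been tested on simulated data. The SE of a log2 fold change is its size divided by the square root of F. CPM are TMM-scaled, and log2 CPM per library was taken with 2 as prior count. Relations between a gene and a marker sum used 100000 permutations within groups. Each library is 1 mouse, and no pair of the 30 within groups was a repeat of the same library (smallest chi-square per gene 20.9).

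Members and lists were chosen with earlier results of these data known. Named genes were the 9 members, the other 7 family genes, EPR, the called genes of the transporter and marker lists, Slc26a3, Slc9a3, Slc4a4, Cftr and Best2, and for each tested member the 3 genes most like it. Genes named for position, shared sequence, level or sign were chosen after their values were seen. The alternatives were DESeq2 1.42.0 size factors, total counts, no filter, filterByExpr, the DESeq2 Wald test, limma-voom (limma 3.58.1) with and without sample quality weights, a replicate block, a tissue composition covariate, an adipocyte covariate (added after seeing the data) and leaving out each library.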

Additional observations from a re-analysis of the deposited data

Results flagged for a closer look

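Among 22 sets of 6 values (the 9 members, Car5b and EPR, each in both groups), the highest or lowest library stood apart by Dixon's criterion in 5, where chance gives about 1.1. In EPR cKO 1, Car3 was at 522 CPM (the next library at 141, the other end at 15.6), Car5b at 18.2 CPM (next 7.02, other end 0.873) and Car9 at 45.0 CPM (next 65.7, other end 76.4). Car12 was at 120 CPM in EPR fl/fl 2, with the next library at 94.3 and the other end at 85.0. EPR, listed as Smim31, was at 0.424 CPM in EPR cKO 2 (10 counts), with the next library at 0.134 and the other end at 0. What sets these libraries apart was not tested.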

How the results depend on the processing

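The count of members called lower, 1, became 2 with sample quality weights and ran from 1 to 2 when single libraries were left out (2 without EPR fl/fl 2, by Car4, and without EPR cKO 1, by Car3). The count called higher, 1, became 0 with total counts, with the tissue composition covariate and with the adipocyte covariate, and 2 with sample quality weights, and ran from 0 to 2 when single libraries were left out (0 without EPR fl/fl 4 and without EPR cKO 3, 2 without EPR cKO 1). Called transporters, 1, became 5 with sample quality weights and 0 with the adipocyte covariate, and ran from 0 (without EPR fl/fl 4) to 4 (without EPR cKO 1). The cause was not tested. With the adipocyte covariate, the signs of Car2 (−0.024), Car3 (0.11) and Car5b (0.33) reversed. Slc9a3 reversed with sample quality weights (0.15) and the adipocyte covariate (0.067), and ran from −0.26 to 0.12 without single libraries. Cftr reversed with total counts (−0.0095), no filter (−0.012), the tissue composition covariate (−0.21) and the adipocyte covariate (−0.18), and ran from −0.069 to 0.11 without single libraries. The replicate numbers gave correlations of deviations from −0.24 to 0.34 between libraries of the same number, so they are taken only as names. With a replicate block, Car8 had −1.09 (adjusted p = 0.00843) and Car9 0.58 (0.0369), 1 member was lower and 1 higher, and over all genes 178 were lower and 67 higher, against 251 and 141. Over all genes, quality weights called 1891 lower and 1372 higher, the DESeq2 Wald test 473 and 440, total counts 247 and 39, no filter 243 and 54, the tissue composition covariate 243 and 82, the adipocyte covariate 123 and 15, and single left-out libraries 145 to 2273 and 28 to 1178. Car7 and other genes under 1 CPM rest on few counts (2 to 18 per library for Car7).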
